A study of Mus musculus with 7 samples.

Results

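The clustered protocadherins are cell adhesion proteins of the neuronal surface that are encoded side by side in an alpha, a beta and a gamma cluster on mouse chromosome 18. They were taken as every protein-coding gene of the deposited table whose symbol belongs to one of the 3 clusters, which gave 57 of 55416 genes, with 14 in the alpha, 22 in the beta and 21 in the gamma cluster. In the table's coordinates, which lay 133053 bases above GRCm38 for every member, the alpha cluster ran from 37063237 to 37320714, the beta cluster from 37397991 to 37657532 and the gamma cluster from 37794846 to 37974926. Pcdhgb8 is typed as a polymorphic pseudogene in the table and was left out.

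In the alpha and gamma clusters each gene starts with its own large variable exon, which codes for the extracellular cadherin repeats, the membrane segment and part of the cytoplasmic tail, and is spliced to constant exons that all genes of the cluster share. The beta genes are mostly single exons and lack the constant part. A neuron chooses a few of the alternate promoters, by DNA looping that involves CTCF and cohesin, while the C-type genes at the end of the alpha and gamma clusters are regulated apart from the alternate genes and are used by many neurons. Isoforms that match on opposing membranes bind each other, and the combination of isoforms gives a neuron an identity that serves the self-avoidance of dendrites, the tiling of axons, and synapse formation and survival of interneurons.

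The libraries came from PFC tissue of female C57BL/6 wild-type mice that had received rAAV by injection into this region. Ctr mice (3 libraries) received the empty vector, Ref mice (2 libraries) the vector with the lncRNA PAXIP1-AS1 carrying the C allele of rs112651172, and Alt mice (2 libraries) the same with the G allele. All constructs, the control included, carried EGFP under the human synapsin promoter, which is active in neurons, so that the inserted transcript was aimed at neurons while RNA was taken from whole tissue. Age, the time of tissue collection and whether each library stands for 1 animal are not given in the sources used here, so p-values measure the spread between these libraries, which may be technical. The purpose of the comparisons was to learn what overexpression of the lncRNA, and the allele it carries, does to PFC gene expression.

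The total count lay between 16655697 and 20750857 per library, and the members together received 9070 to 10813 reads in each. Levels are given as CPM, the reads of a gene per 1000000 reads of the TMM-scaled library. Markers of cortical neurons summed to 5185 to 6242 CPM in every library, those of striatum to 34.1 to 66.8 CPM and those of choroid plexus to 2.26 to 6.11 CPM, and no marker gene on any list was at 0 in every library. The 10 oligodendrocyte markers summed to 2424 to 3431 CPM in Ctr, 4101 to 5101 in Ref and 2374 to 2904 in Alt, and the 6 astrocyte markers to 1863 to 2136 in Ctr, 2402 to 2443 in Ref and 1823 to 2103 in Alt. In whole tissue fewer cells of a type and less RNA per cell cannot be told apart. The Alt libraries differed from each other in many members, with Alt replicate 1 the higher one, and counts of members are therefore also given without each of them.

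How many reads a member could receive depended on its exons. By the GENCODE M21 annotation, the alpha genes shared 2860 to 2864 exonic bases with other members, the gamma genes 2116 to 3157 and the beta genes 0 to 455. Pcdhga10 had 0 exonic bases free of other annotated genes when strand was ignored, and 2613 when only genes of its own strand counted. It was at 0 in 4 libraries and at 6 to 11 reads in the others, so reads on the constant exons had not been credited to every gene of the cluster. The counts of alpha and gamma members therefore rest mainly on the bases that no other gene covers. The protocol marks the second strand, but whether the counting used strand is not given in the sources used here.

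**Figure D1:**
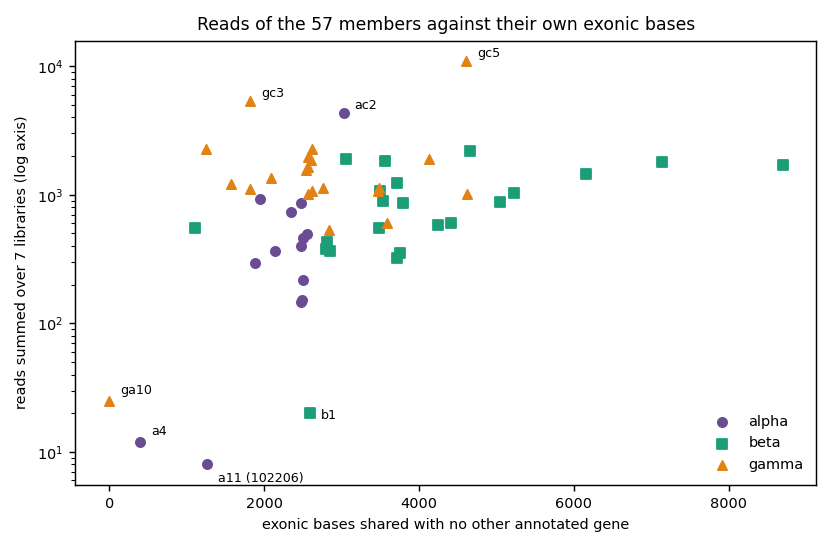
Reads summed over the 7 libraries (y, log axis) against the exonic bases shared with no other annotated gene on either strand (x), with a point for each of the 57 members, named by symbol without "Pcdh". The 4 members that were not tested, ga10, a4, b1 and the lower a11 row, lie at 25 reads or fewer, and gc5, gc3 and ac2 lie highest.

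The 4 members that the low-count filter removed were Pcdha4, with 12 reads in all libraries together and 404 own exonic bases, Pcdhb1, with 20 reads, Pcdhga10, with 25 reads, and a row named Pcdha11, with 8 reads. Pcdhb1 reached 5 to 8 reads in Ctr replicate 3 and both Ref libraries and was at 0 in the other 4, and Pcdhga10 was above 0 in the same 3 libraries. These 3 libraries also held more genes at exactly 1 read over the whole table, 1015 to 1370 against 310 to 472 in the other 4, and the part of this difference in the zeros of Pcdhb1 and Pcdhga10 was not tested. A pair of rows carries the symbol Pcdha11. The tested row (ENSMUSG00000007440) starts 117 bases from RefSeq's Pcdha10 in GRCm38, and the removed row (ENSMUSG00000102206) starts 146 bases from RefSeq's Pcdha11, so the tested row may be the gene that RefSeq calls Pcdha10.

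Per kilobase of own exonic bases, the gamma genes were the most abundant members. Their median level was 4.55 CPM per kilobase over the 20 tested genes, against 1.35 over the 12 alpha genes and 1.51 over the 21 beta genes. The C-type genes led the gamma and alpha clusters, with Pcdhgc3 at 22.3 CPM per kilobase, Pcdhgc5 at 17.7 and Pcdhac2 at 11.0, while Pcdhgc4 was at 2.40 and Pcdhac1 at 1.48. Pcdhga11 was the highest alternate gene at 13.6, and Pcdhb9 the highest beta gene at 4.59. With only same-strand genes taken as overlapping, Pcdhgc3 was at 12.01 and Pcdhga11 at 6.48, Pcdhgc5 became the highest member, Pcdhga6 at 6.55 became the highest alternate gene, and the gamma median was 3.60.

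**Figure D2:**
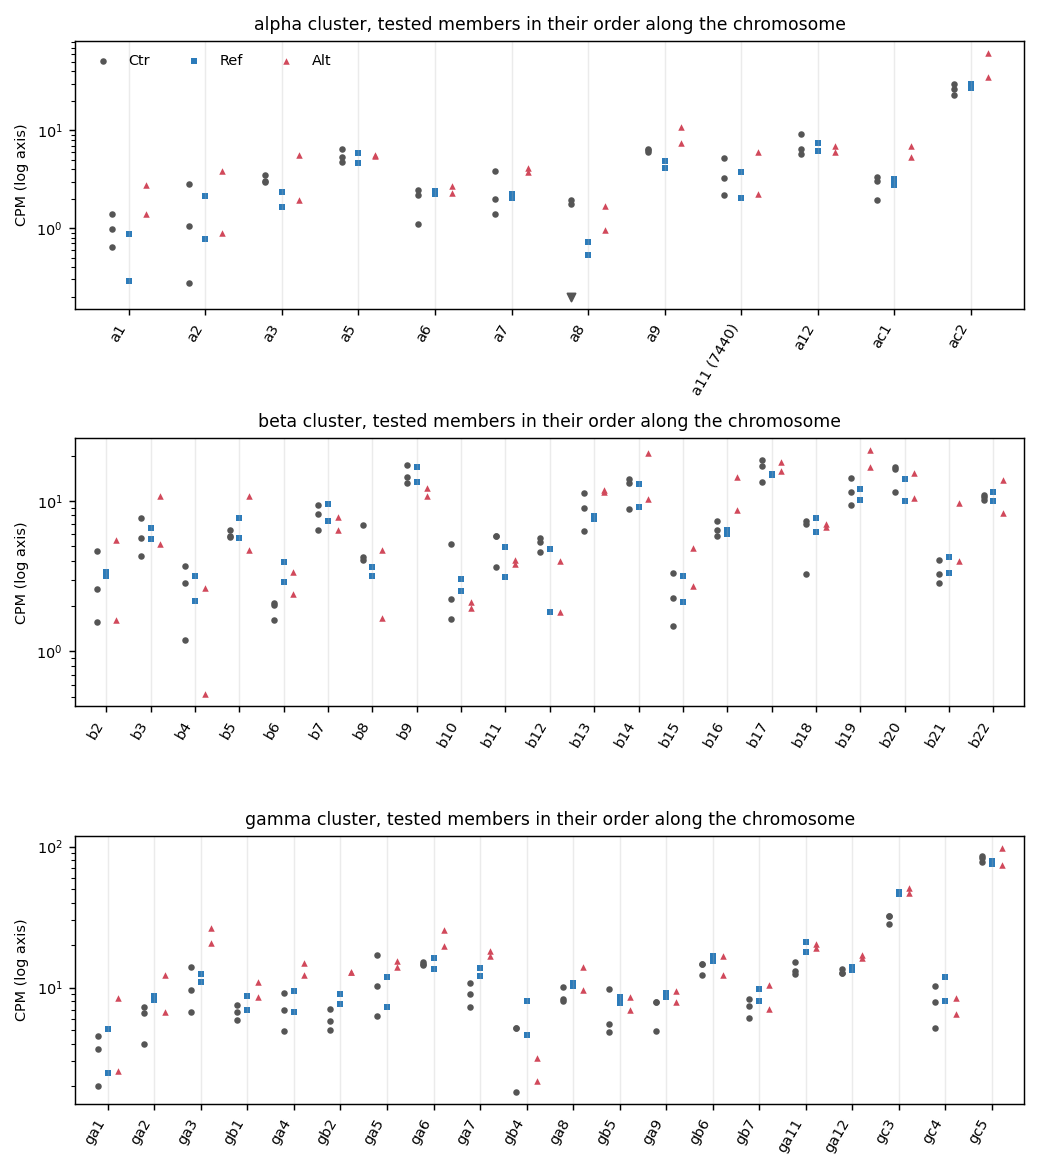
CPM of the 53 tested members in each library (y, log axis), in the order of the genes along each cluster (x, symbols without "Pcdh"), with circles for Ctr, squares for Ref and triangles for Alt. A downward triangle stands for a library at 0, and a11 is the tested row of that name. The C-type genes ac2, gc3 and gc5 stand above the other genes of their clusters, and the Alt triangles lie above the Ctr circles in most genes from ga3 to ga7.

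Within Ctr the spread between libraries differed widely from member to member. The coefficient of variation of CPM had a median of 32.1% over the alpha, 20.8% over the beta and 18.2% over the gamma genes tested, and ran from 2.42% for Pcdhga6 to 95.1% for Pcdha2. This spread limits what the comparisons below can show for the alternate alpha genes, which had at most 9.10 CPM in Ctr.

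In Alt most gamma and alpha members had a higher mean than in Ctr, and the beta members showed both directions. At an unadjusted p under 0.05, 7 of 20 gamma, 2 of 12 alpha and 3 of 21 beta genes were higher and 0 were lower, where 9.45% of all 17254 genes tested were higher and 10.3% were lower (edgeR's quasi-likelihood test). The median log2 fold change was 0.48 in gamma, 0.47 in alpha and 0.23 in beta, against -0.03 over all genes tested. The log2 fold change was above 0 in 42 of the 53 members (79.2%), and in 47.9% of all genes. Without Alt replicate 1 it was above 0 in 7 of 12 alpha, 9 of 21 beta and 15 of 21 gamma genes. Without Alt replicate 2 these were 11, 13 and 18. The median over all genes was -0.03 and -0.08 in these fits. In 17 members both Alt libraries lay above all 3 Ctr libraries and in 2 members below them, against 16.8% and 18.1% of all genes.

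With Benjamini-Hochberg adjustment over all genes, edgeR called 0 of the 53 members in Alt versus Ctr, as it did for 0% of all genes, and the smallest adjusted p of a member was 0.12. DESeq2 called 5 of the 49 members to which it gave an adjusted p at a value under 0.05, all higher in Alt, with 5.03% of the genes it tested called higher. These were Pcdhga3, Pcdhgb2, Pcdhga7, Pcdhgc3 and Pcdhac2, with adjusted p from 0.00907 to 0.0195 by DESeq2. Without the low-count filter edgeR called the same 5 members, with adjusted p from 0.000687 to 0.0304 and 2.65% of the genes then tested called higher. Without Alt replicate 2 edgeR with the filter called 10 members, these 5 and Pcdhb16, Pcdhb19, Pcdhb21, Pcdhga2 and Pcdhga6, where 7.56% of the genes then tested were called higher. The adjusted calls thus depended on the filter, the tool and 1 library.

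Without Alt replicate 1, 6 of the 21 gamma genes then tested were higher at an unadjusted p under 0.05 where 3.68% of all genes were, 0 alpha and 0 beta genes were higher, and Pcdhb8 was lower where 4.46% of all genes were. The medians were then 0.36 in gamma, 0.14 in alpha and -0.05 in beta. Without Alt replicate 2, 10 gamma, 3 alpha and 6 beta genes were higher, where 14.3% of all genes were, and 2 beta genes were lower where 18.9% were. In both fits the remaining Alt library was assumed to vary as the other groups did.

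**Figure D3:**
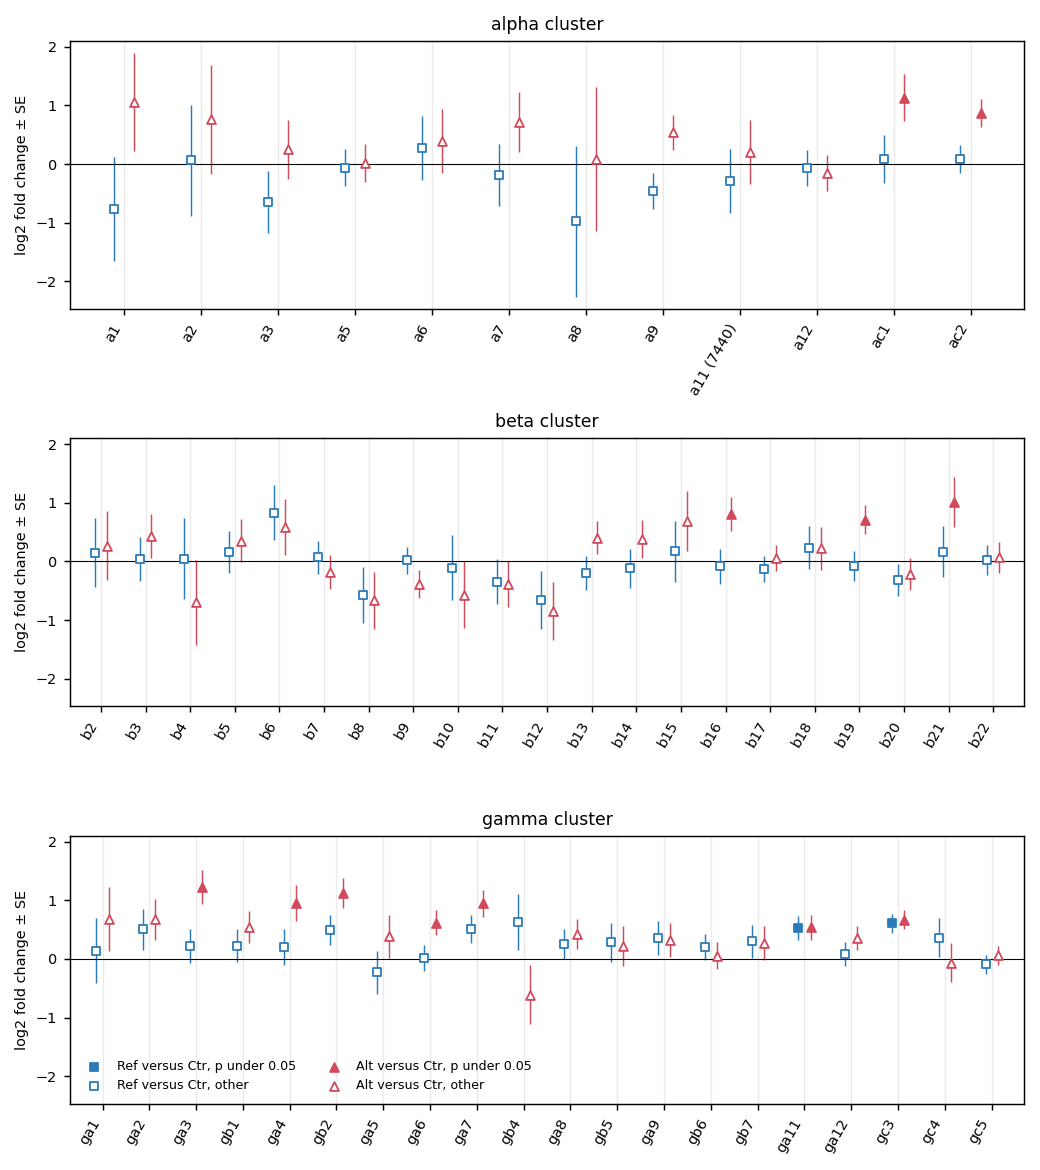
Log2 fold change ± SE (y) of the 53 tested members in Ref versus Ctr (squares) and Alt versus Ctr (triangles), in cluster order (x, symbols without "Pcdh"). Filled symbols have an unadjusted p under 0.05 by edgeR's quasi-likelihood test, and both comparisons share the Ctr libraries. The filled triangles gather between ga3 and ga7, and gc3 and ga11 are filled in both comparisons.

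Among the tested members, Pcdhga3 had the largest log2 fold change in Alt versus Ctr. Pcdhga3 was at 6.70, 9.70 and 13.9 CPM in Ctr, 11.0 and 12.5 in Ref, and 26.4 and 20.7 in Alt. Both Alt libraries stood above every other library, and the Ref libraries lay within the Ctr range. Its log2 fold change in Alt versus Ctr was 1.22 ± 0.29 (SE), which is 2.33-fold, with an unadjusted p of 0.0012 and an adjusted p of 0.12 (edgeR's quasi-likelihood test). This p stayed under 0.05 when any of the 7 libraries was left out, with log2 fold changes from 1.00 to 1.52.

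Pcdhgb2 was at 5.01, 7.04 and 5.81 CPM in Ctr, 9.05 and 7.70 in Ref, and 13.01 and 12.99 in Alt. The groups did not overlap and stood in the order Ctr, Ref, Alt. Its log2 fold change was 1.13 ± 0.26 in Alt versus Ctr (unadjusted p 0.00102) and 0.49 ± 0.26 in Ref versus Ctr (unadjusted p 0.086). Alt versus Ref was 0.63 ± 0.29 with an unadjusted p of 0.0484, which stayed under 0.05 in only 1 of the 7 fits that left out a library.

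Pcdhga7 showed the same order, at 9.09, 7.29 and 10.8 CPM in Ctr, 12.2 and 13.7 in Ref, and 18.1 and 16.8 in Alt. Its log2 fold change was 0.94 ± 0.24 in Alt versus Ctr (unadjusted p 0.0019) and 0.52 ± 0.24 in Ref versus Ctr (unadjusted p 0.0523). Pcdhga6 did not show it, with 14.8, 14.5 and 15.2 CPM in Ctr, 16.3 and 13.6 in Ref, and 25.7 and 19.7 in Alt. Only Alt stood apart there, by 0.62 ± 0.21 on the log2 scale against Ctr (unadjusted p 0.0136), and the unadjusted p was 0.115 without Alt replicate 1. Pcdhga4 was picked for mention after its values were seen. It was at 4.92 to 9.16 CPM in Ctr, 9.48 and 6.72 in Ref, and 12.3 and 14.9 in Alt. Its log2 fold change in Alt versus Ctr was 0.95 ± 0.30 (unadjusted p 0.00877). This fold change ran from 0.75 to 1.19 when each library was left out in turn. With a replicate block in the fit its p was above 0.05.

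Pcdhga3, Pcdhgb2, Pcdhga6 and Pcdhga7 lie in the first stretch of the gamma cluster, where the fold changes were larger. The 9 genes from Pcdhga1 to Pcdhga7 had a median log2 fold change of 0.68 in Alt versus Ctr, ranging from 0.39 to 1.22, and the 8 tested genes from Pcdhgb4 to Pcdhga12 had a median of 0.30, ranging from -0.61 to 0.54. The summed level of the first 9 genes was 65.0, 79.3 and 78.5 CPM in Ctr, 89.4 and 82.3 in Ref, and 140.2 and 119.6 in Alt. That of the other 8 was 64.6, 76.2 and 82.1 CPM in Ctr, 92.2 in both Ref libraries, and 93.005 and 87.9 in Alt. In Ref both sums lay above every Ctr library, and in Alt only the first lay above Ref.

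The split at Pcdhga7 was drawn after these values were seen, so it was not tested. Across the 20 gamma genes, which come from the same libraries and are not independent, the fold change and the order along the cluster had a Spearman correlation of -0.665 in Alt versus Ctr and 0.12 in Ref versus Ctr. The former was -0.245 without Alt replicate 1, -0.633 without Alt replicate 2 and -0.62 after the correction for GC content. All 11 tested genes of the gamma A type had a fold change above 0, with a median of 0.62, and 5 of the 6 gamma B genes did, with a median of 0.24.

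Of the 3 C-type genes of the gamma cluster, Pcdhgc3 was the one with an unadjusted p under 0.05 in Alt versus Ctr or in Ref versus Ctr. Pcdhgc3 was at 28.2, 32.05 and 32.2 CPM in Ctr, 47.8 and 46.1 in Ref, and 51.0 and 46.7 in Alt. Every Ref and Alt library stood above every Ctr library, and Ref and Alt overlapped. The log2 fold change was 0.66 ± 0.16 in Alt versus Ctr (unadjusted p 0.0015), 0.61 ± 0.16 in Ref versus Ctr (unadjusted p 0.00282) and 0.06 ± 0.18 in Alt versus Ref, and leaving out any 1 library kept the first 2 under 0.05.

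Pcdhgc5, the member with the most reads, was at 77.6, 85.8 and 82.7 CPM in Ctr, 79.3 and 75.2 in Ref, and 97.9 and 73.4 in Alt. The groups overlapped, with a log2 fold change of 0.06 ± 0.16 in Alt versus Ctr and -0.09 ± 0.16 in Ref versus Ctr. Pcdhgc4, the isoform linked to the survival of cortical interneurons, was at 5.16 to 10.4 CPM in Ctr, 8.03 and 11.997 in Ref, and 8.45 and 6.53 in Alt. It too overlapped between groups, at -0.06 ± 0.34 in Alt versus Ctr. Of all gamma CPM, Pcdhgc5 held 30.5% ± 1.69 in the Ctr, 24.7% ± 0.412 in the Ref and 23.5% ± 2.20 in the Alt libraries (mean ± SD), with no overlap between Ctr and the other groups, and Pcdhgc3 held 11.5%, 15.0% and 13.5%.

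In the alpha cluster the C-type genes carried both calls. Pcdhac2 was at 23.0, 26.5 and 30.0 CPM in Ctr, 27.0 and 29.6 in Ref, and 61.9 and 35.0 in Alt. Both Alt libraries were the highest, but they were far apart. The log2 fold change in Alt versus Ctr was 0.87 ± 0.23 (unadjusted p 0.0031), and it was 0.40 with an unadjusted p of 0.0929 without Alt replicate 1. Pcdhac1 was at 1.94, 3.05 and 3.34 CPM in Ctr, 2.76 and 3.15 in Ref, and 6.89 and 5.30 in Alt, with a log2 fold change of 1.13 ± 0.40 (unadjusted p 0.0151). It was 0.93 both without Ctr replicate 1 and without Alt replicate 1, with unadjusted p of 0.0506 and 0.0706.

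At an unadjusted p under 0.05, 0 of the 10 alternate alpha genes tested were called in Alt versus Ctr, where 9.45% of all genes were higher and 10.3% lower, and 9 of the 10 had a log2 fold change above 0, as 47.9% of all genes did, with a median of 0.32 on the log2 scale. Pcdha9 came nearest, at 6.01, 6.30 and 6.41 CPM in Ctr, 4.16 and 4.91 in Ref, and 10.8 and 7.36 in Alt. Alt stood above Ctr and Ref below it. Pcdha12, at 5.76 to 9.10 CPM in Ctr and 5.98 and 6.86 in Alt, overlapped between groups, as did Pcdha3 and Pcdha7 between Alt and Ctr.

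The beta calls were Pcdhb16, Pcdhb19 and Pcdhb21. They lie toward the end of that cluster, which was noticed after the values were seen. Between and after them, Pcdhb17, Pcdhb18, Pcdhb20 and Pcdhb22 had log2 fold changes from -0.21 to 0.23. Pcdhb19 was at 9.43, 14.3 and 11.4 CPM in Ctr, 10.1 and 12.05 in Ref, and 21.7 and 16.7 in Alt. Pcdhb16 was at 7.40, 6.45 and 5.85 CPM in Ctr, 6.43 and 5.998 in Ref, and 14.4 and 8.70 in Alt. Both Alt libraries stood above every other library in these genes, with log2 fold changes of 0.71 ± 0.25 (unadjusted p 0.0143) and 0.81 ± 0.29 (unadjusted p 0.0162).

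Pcdhb21 was at 2.83 to 4.02 CPM in Ctr, 4.26 and 3.31 in Ref, and 9.69 and 3.96 in Alt. Only Alt replicate 1 was high, and the log2 fold change of 1.01 ± 0.42 (unadjusted p 0.0331) fell to 0.24 without it. Without Alt replicate 1, Pcdhb16 and Pcdhb19 were at 0.41 and 0.52 with unadjusted p of 0.236 and 0.0914. Among the 3 beta genes with the most CPM, Pcdhb17 overlapped between Alt and Ctr and Pcdhb9 was lower in both Alt libraries than in Ctr, with Pcdhb9 at 13.1 to 17.4 CPM in Ctr and 12.2 and 10.7 in Alt (log2 fold change -0.39 ± 0.24) and Pcdhb17 at 13.4 to 18.7 CPM in Ctr and 18.2 and 15.9 in Alt (0.05 ± 0.22). In Ref Pcdhb17 was at 15.04 and 14.9 CPM, below both Alt libraries, and Alt versus Ref was 0.18 ± 0.24 (unadjusted p 0.464). Pcdhb12 had the most negative log2 fold change of the members, -0.84 ± 0.49, with 4.60 to 5.66 CPM in Ctr and 1.82 and 3.96 in Alt.

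**Figure D4:**
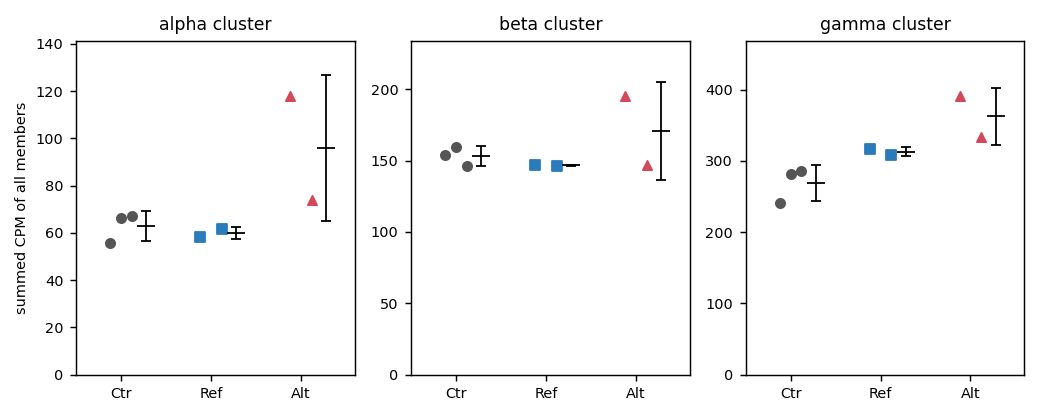
Summed CPM of all members of each cluster (y, from 0) by group (x), with a symbol for each library and, beside it, the mean ± SD of the group (3 Ctr, 2 Ref and 2 Alt libraries). Both Alt libraries lie above Ctr and Ref in the alpha and gamma clusters, Alt replicate 2 lies within the Ctr range in the beta cluster, and Ref lies above Ctr in gamma alone.

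The summed levels showed the same contrast between clusters. Over the gamma members the sum was 269 ± 25.1 CPM (mean ± SD of 3 libraries) for Ctr, and 313 ± 6.35 CPM for Ref and 362 ± 39.8 CPM for Alt (2 libraries each). The alpha members summed to 63.0 ± 6.43 in Ctr, 59.99 ± 2.62 in Ref and 95.9 ± 30.95 in Alt, of which Alt replicate 1 had 118 and Alt replicate 2 had 74.0. The beta members summed to 153 ± 6.89, 147 ± 0.430 and 171 ± 34.2 CPM, and Alt replicate 2 was at 147.

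Ref and Ctr, the comparison of the C allele with the empty vector, differed in few members. At an unadjusted p under 0.05, 2 gamma genes were higher in Ref, 0 alpha and 0 beta genes were, and 0 members were lower, where 2.19% of all genes were higher and 0.945% were lower. With adjustment edgeR called 0 members and 0% of all genes, and DESeq2 called 0 of the 33 members to which it gave an adjusted p, with 0.0551% of such genes called. The median log2 fold change was 0.27 in gamma, -0.12 in alpha and 0.02 in beta, against 0.01 over all genes. In 9 of the 53 members, 8 of them in gamma, both Ref libraries lay above every Ctr library, against 12.4% of all genes. In 3 members both lay below every Ctr library, as they did in 1808 of all 17254 genes.

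The 2 genes were Pcdhgc3, described above, and Pcdhga11. Pcdhga11 was at 13.2, 15.1 and 12.5 CPM in Ctr, 18.04 and 21.2 in Ref, and 20.3 and 19.2 in Alt. Ref and Alt stood together above Ctr, by 0.53 ± 0.21 (unadjusted p 0.0252) and 0.54 ± 0.21 (unadjusted p 0.0237) on the log2 scale, and both p were above 0.05 without Ctr replicate 1 or Ctr replicate 3, as was the former without Ref replicate 2 or after the correction for GC content (0.40, unadjusted p 0.0905) and the latter without Alt replicate 1. Genes on the opposite strand cover part of the exons of Pcdhga11 and Pcdhgc3, leaving 1256 and 1821 own bases against 2637 and 3380 when only their own strand counts, and without strand the reads of such partners cannot be told apart. In the same comparison 8 of 10 oligodendrocyte and 3 of 6 astrocyte markers were higher at an unadjusted p under 0.05, and their part in the gamma values was not tested.

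Among the members with the smallest p in the other clusters, Pcdhb6 was at 1.62 to 2.09 CPM in Ctr, 2.90 and 3.93 in Ref, and 3.38 and 2.40 in Alt, with a log2 fold change of 0.83 ± 0.47 in Ref versus Ctr (unadjusted p 0.0997). Pcdha3 was lower in both Ref libraries than in Ctr, at 2.37 and 1.65 CPM against 2.95 to 3.52, with -0.65 ± 0.52 (unadjusted p 0.239).

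Alt versus Ref compared the alleles. At an unadjusted p under 0.05, 3 of 12 alpha, 2 of 21 beta and 4 of 20 gamma genes were higher in Alt and 1 gamma gene was lower, where 6.71% of all genes were higher and 8.83% lower. After adjustment edgeR called 0 members, with 0.0058% of all genes called, and DESeq2 called 0 of the 34 members to which it gave an adjusted p, with 3.82% of such genes called. Without the low-count filter edgeR called Pcdhga3 and Pcdhac2, with adjusted p of 0.0402 and 0.0475 and 1.15% of the genes then tested called higher. Without Alt replicate 2 it called 6 members, Pcdha9, Pcdhac2, Pcdhb16, Pcdhb19, Pcdhb21 and Pcdhga3, where 5.41% of the genes then tested were called higher. After the correction for GC content 8 gamma genes were higher and 0 lower at an unadjusted p under 0.05, and the shares of all genes turned to 11.4% higher and 5.22% lower. The median log2 fold change was 0.83 in alpha, 0.10 in beta and 0.17 in gamma, against -0.04 over all genes. This comparison shares the Alt libraries with Alt versus Ctr, and without Alt replicate 1 the alpha median was 0.21, with 0 alpha and 0 beta genes called. Without it 2 gamma genes were higher, Pcdhga3 and Pcdhga4, and Pcdhgb4 was lower, where 2.35% of all genes were higher and 4.40% lower. Without Ref replicate 1, too, 0 alpha and 0 beta genes were called, and 2 gamma genes were higher where 1.30% of all genes were.

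The alpha genes higher in Alt than in Ref were Pcdha9, by 1.00 ± 0.33 on the log2 scale (unadjusted p 0.0106), Pcdhac2, by 0.77 ± 0.26 (unadjusted p 0.012), and Pcdhac1, by 1.04 ± 0.45 (unadjusted p 0.0379). The beta genes were Pcdhb19 and Pcdhb16, by 0.79 ± 0.28 and 0.89 ± 0.33. In gamma Pcdhga3 was higher by 1.00 ± 0.32 (unadjusted p 0.0092) and Pcdhga6 by 0.60 ± 0.24 (unadjusted p 0.0261), and Pcdhgb2 and Pcdhga4 had p of 0.0484 and 0.0479. The lower gene, Pcdhgb4, named here because it was the only one, was at 1.84, 5.22 and 5.20 CPM in Ctr, 8.03 and 4.65 in Ref, and 3.19 and 2.18 in Alt. Its log2 fold change was -1.24 ± 0.54 (unadjusted p 0.0412), the Ctr libraries spanned those of Alt and overlapped those of Ref, and the p was above 0.05 without Ctr replicate 3, Ref replicate 1 or Alt replicate 2. In the same comparison 8 of 10 oligodendrocyte markers were lower in Alt, and their part was not tested.

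Genes known to act on the clusters were read from a list of 18, which holds CTCF, the cohesin subunits, their loaders and release factors, and repressors and DNA methyltransferases. In Alt versus Ctr, 3 of the 18 were higher and 1 was lower at an unadjusted p under 0.05, against 9.45% and 10.3% of all genes, with a median log2 fold change of 0.17 against -0.03. Nipbl, which loads cohesin onto DNA, was at 59.1 to 69.1 CPM in Ctr, 72.7 and 82.9 in Ref, and 139.6 and 112 in Alt. The groups did not overlap, and its log2 fold change was 0.95 ± 0.16 in Alt versus Ctr (unadjusted p 7e-05). Pds5a, which helps to release cohesin, was at 64.0 to 87.8 CPM in Ctr, 70.4 and 71.9 in Ref, and 137 and 109 in Alt, a log2 fold change of 0.70 ± 0.17 (unadjusted p 0.00161).

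Stag1, a cohesin subunit, differed by 0.37 ± 0.16 (unadjusted p 0.0389) and Smc1a, another, by -0.35 ± 0.15 (unadjusted p 0.0438). Ctcf itself, at 72.3 CPM in Ctr, 65.0 in Ref and 68.0 in Alt on average, had a log2 fold change of -0.09 in Alt versus Ctr, and the cohesin subunits Smc3 and Rad21 were at -0.10 and 0.04. In Ref versus Ctr 0 of the 18 genes passed 0.05, where 2.19% of all genes were higher and 0.945% lower. In Alt versus Ref 4 of the 18 were higher and 0 lower, where 6.71% of all genes were higher and 8.83% lower, with a median log2 fold change of 0.08 against -0.04.

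**Figure D5:**
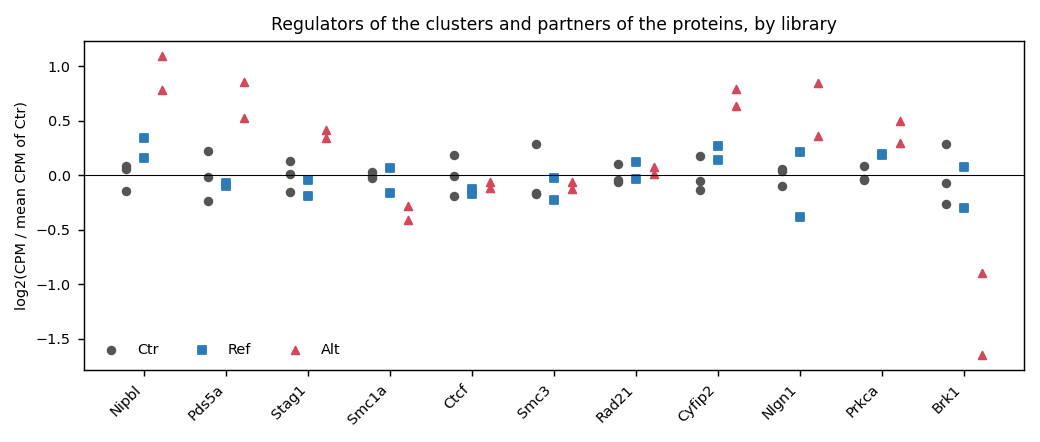
Log2 ratio of each library's CPM to the mean CPM of Ctr (y) for genes of the regulator and partner lists (x) with an unadjusted p under 0.05 in Alt versus Ctr, together with Ctcf, Smc3 and Rad21. Nipbl, Pds5a, Stag1, Cyfip2, Nlgn1 and Prkca lie higher in both Alt libraries than in Ctr, Smc1a and Brk1 lie lower, and the Alt libraries lie within the Ctr range for Ctcf, Smc3 and Rad21.

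Of 16 genes whose proteins act with the protocadherins, Alt versus Ctr gave 3 that were higher and 1 that was lower, against 9.45% and 10.3% of all genes, and the median log2 fold change was 0.09. The clustered protocadherins bind the WAVE complex, which builds branched actin, and its subunits differed in direction. Cyfip2 was at 1096 to 1357 CPM in Ctr, 1326 and 1448 in Ref, and 2078 and 1867 in Alt, by 0.71 ± 0.15 (unadjusted p 0.000441). Brk1, a small subunit of the complex, was at 55.8 to 81.4 CPM in Ctr, 70.5 and 54.3 in Ref, and 21.3 and 35.9 in Alt, by -1.22 ± 0.25 (unadjusted p 0.000371). Both genes separated Alt from all other libraries, in opposite directions. Nlgn1, a synaptic adhesion protein, was higher by 0.62 ± 0.20 and Prkca, a kinase, by 0.39 ± 0.14, while Wasf1, Nckap1, Ptk2 and Ptk2b did not pass 0.05. Of the 16, 3 were higher and 1 lower in Alt versus Ref, against 6.71% and 8.83% of all genes, and 0 passed 0.05 in Ref versus Ctr, against 2.19% and 0.945%.

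The 12 non-clustered protocadherins are encoded outside the clusters and lack the shared constant exons. At an unadjusted p under 0.05, 4 of them were higher and 1 was lower in Alt versus Ctr, against 9.45% and 10.3% of all genes. Their median log2 fold change was 0.29. Pcdh19 was at 67.3 to 91.4 CPM in Ctr, 71.0 and 78.7 in Ref, and 165 and 94.8 in Alt, and Pcdh8 was at 33.8 to 46.3 in Ctr, 35.3 and 31.3 in Ref, and 19.2 and 30.9 in Alt. These genes were chosen to be named after their values were seen. In Ref versus Ctr 0 of the 12 passed 0.05, where 2.19% of all genes were higher and 0.945% lower. In Alt versus Ref 3 of the 12 were higher and 0 lower, where 6.71% of all genes were higher and 8.83% lower, with a median of 0.46. No test of a difference between these lists was made.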

How the data were processed

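Expression in the PFC of female mice was profiled by polyA-enriched RNA-seq in 7 libraries, grouped by their labels into 3 Ctr, 2 Ref and 2 Alt. The authors deposited unnormalized read counts per gene, and beside them TPM and FPKM values, which follow from the counts and from a further column with the length of each gene in bases. According to the submitters' processing notes reads were aligned with STAR and counted with featureCounts. Versions and settings are not given in the sources used here, and the build named there, hg19, is a human one. The deposited gene length includes the exons that members share, so FPKM and TPM were not used and levels were computed from counts as CPM.

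Counts of all genes were fitted in R 4.3.3 with edgeR 4.0.16 (TMM, filterByExpr by group, glmQLFit, glmQLFTest, group means over all 7 libraries), which tested 17254 genes and 53 of the 57 members. TMM factors ran from 0.924 to 1.05. P-values are two-sided and were adjusted by Benjamini-Hochberg over all genes tested. SE is the log2 fold change divided by the square root of F. The comparisons share libraries and are not independent. Alternatives were DESeq2 1.42.0, its size factors in edgeR, no low-count filter, loess corrections (span 0.3) for length or for GC content, a replicate block, and leaving out each library. The scripts were tested on simulated data. Exon structure and GC content came from GENCODE M21 (GRCm38), matched by Ensembl identifier.

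The members, lists and tests were chosen with earlier results of these data known. Named genes were the C-type members, in each cluster the 3 members with the highest mean CPM, the 4 with the smallest p in Alt versus Ctr and the 2 with the smallest p in each other comparison, the members not tested, and regulators and partners with an unadjusted p under 0.05 in Alt versus Ctr. With 2 or 3 libraries per group, and between 8 and 11003 reads per member over all libraries, the depth limits the precision of the low members.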

Additional observations from a re-analysis of the deposited data

How the results depend on the processing

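Of 39 counts of members called under the alternatives, 30 stayed within 1.5 times the reported count. Of 117 cluster medians, 100 moved by less than the spread between libraries. These tallies include fits without a library that is not in the comparison, where the fold changes could hardly move. The counts also took both directions together, so the tallies do not measure stability. Same-numbered libraries of different groups had correlations of deviations from their group means between -0.0984 and 0.0702 over the genes tested. In groups of 2 libraries the deviations mirror each other, so these values are not separate checks. They cannot exclude a pairing or batch that affects some genes. With the replicate block, 7 members were called in Alt versus Ctr, where 6.54% of all genes were higher and 6.10% lower, and 6 in Alt versus Ref, where 3.76% and 5.25% were. Under it the beta calls of Alt versus Ctr were lost, with unadjusted p of 0.0676 for Pcdhb16, 0.0536 for Pcdhb19 and 0.119 for Pcdhb21 (edgeR). Pcdhga11 had 0.0967 in Alt versus Ctr and 0.104 in Ref versus Ctr by the same test. Pcdhga4 was above 0.05 in Alt versus Ctr and in Alt versus Ref. The gamma median of Ref versus Ctr was then 0.44. The GC correction left 1 member in Ref versus Ctr, where 1.34% of all genes were higher and 2.00% lower, raised the gamma genes called higher to 11 in Alt versus Ctr and 8 in Alt versus Ref, where 12.2% and 11.4% of all genes were higher, and gave gamma medians of 0.63 in Alt versus Ctr, 0.50 in Alt versus Ref and 0.15 in Ref versus Ctr. The gene length correction gave a beta median of 0.29 in Alt versus Ref. The cause of these shifts was not tested.

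Leaving out each library in turn gave 7 to 21 members called in Alt versus Ctr, 2 to 14 in Alt versus Ref and 1 to 3 in Ref versus Ctr. In Ref versus Ctr these fits gave 1 to 3 members, all higher, where 1.29% to 2.59% of all genes were higher and 0.551% to 1.15% lower. Fits that left 1 library in a group are given here by their medians. With each of the 7 libraries left out in turn, the alpha median ran from 0.14 to 0.78 in Alt versus Ctr. It ran from 0.21 to 1.18 in Alt versus Ref and from -0.36 to -0.031 in Ref versus Ctr. The beta median ran from -0.047 to 0.39 in Alt versus Ctr and from -0.074 to 0.38 in Alt versus Ref, below 0 in both without Alt replicate 1. The gamma median ran from 0.36 to 0.53, from 0.090 to 0.32 and from 0.19 to 0.44 in Alt versus Ctr, Alt versus Ref and Ref versus Ctr. The lowest medians of Alt versus Ctr were those without Alt replicate 1.

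The values rest on 2 Alt libraries that differed from each other, and the low counts of many alpha and beta members limit their precision. Calls at an unadjusted p under 0.05 are not corrected for the number of genes tested.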
